A study of Mus musculus with 24 samples.

Results

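The transcripts of 6 genes were followed in mature B cells from mice with Spi1 (encoding PU.1), Spib or both genes inactivated: the E protein genes Tcf3 (encoding E2A), Tcf4 (E2-2) and Tcf12 (HEB), and the genes of their inhibitors Id1, Id2 and Id3. The members were taken by gene symbol from the 27179 genes of the count tables, without use of their values. On GRCm38.p6, Tcf3 (gene ID 21423) lies on chromosome 10 at 80409541 to 80433976, Tcf12 (21406) on chromosome 9 at 71844252 to 72111893 and Id1 (15901) on chromosome 2 at 152736251 to 152737410, and Tcf4 (21413) is on chromosome 18. Id2 and Id3 are placed beside their sequences. B cells from lymph nodes of C57BL/6 mice aged 6 to 20 weeks were sorted as CD3- B220+ CD138- and profiled by RNA sequencing. They were sequenced as naive cells, or after 48 h of culture, either with CD40L + IL-4 or in LPS + IL-4. Each of the 4 genotypes had 2 biological replicates at each of the 3 stages, which gave 24 libraries. Control mice carried Cd23T/+, a BAC transgene in which regulatory sequences of Cd23 drive Cre from the transitional B cell stage onward. PU.1 cKO mice were Spi1fl/fl Cd23T/+, in which Cre removes the floxed exon of Spi1. SpiB KO mice were Spi1fl/fl Cd23+/+ Spib-/- and carried no Cre, so they differed from control in the transgene and the floxed alleles as well as in Spib. PU.1 SpiB DKO mice were Spi1fl/fl Cd23T/+ Spib-/-. The 2 control libraries of a stage enter every comparison with control there, so those comparisons are not independent.

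E proteins are basic helix-loop-helix factors that bind E-box sequences in DNA as homodimers or heterodimers, and they are required for commitment to the B lineage and for the germinal center response. Id proteins hold the helix-loop-helix dimerization domain but no basic region, so a dimer of an E protein with an Id protein cannot bind DNA. The balance of the 2 families therefore sets E protein activity in lymphocytes. Tcf4 is in addition the defining regulator of plasmacytoid dendritic cells (pDC), and Id2 is needed by natural killer and innate lymphoid cells.

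Levels within a stage are given as CPM, the usual scaling of read counts to library size, with TMM factors (edgeR) across that stage's 8 libraries. Genes reaching 0.5 CPM in at least 2 libraries were tested, and a difference passed the test at a Benjamini-Hochberg adjusted p under 0.15 over all genes tested, the false discovery rate of the study. The fold limit of 1.5 that the study added to it was not applied, and every call given below for Tcf3 and Tcf12, for Id3 between genotypes and for Tcf4 and Id2 between genotypes after LPS + IL-4 lies under that limit. Tcf3, Tcf4, Tcf12, Id2 and Id3 were tested in every comparison. Id1 never reached the filter. Values in parentheses after a log2 fold change are its standard error (SE) and its adjusted p from edgeR's quasi-likelihood test. The smallest p of an exact permutation test of 2 libraries against 2 is 0.333.

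Total counts on genes ran from 14231188 to 18194629 in naive libraries, from 9598674 to 61640683 after CD40L + IL-4 and from 22757630 to 73658850 after LPS + IL-4. Spib was lower than control in both Spib-/- genotypes at every stage (log2 fold changes of -3.83 to -5.50). Spi1 passed the test as lower in PU.1 cKO at every stage. In PU.1 SpiB DKO it was lower in naive cells (103 and 110 CPM, against 155 and 174 in control) and after CD40L + IL-4 (32.5 and 25.6, against 84.8 and 108). After LPS + IL-4 the libraries labelled PU.1 SpiB DKO held 63.9 and 58.8 CPM of Spi1. Control held 72.0 and 60.7 CPM there (adjusted p = 0.448) and PU.1 cKO 44.2 and 41.2. Spi1 was thus 0.52 higher on the log2 scale in PU.1 SpiB DKO than in PU.1 cKO (SE 0.10, adjusted p = 0.00944). That bears on every PU.1 SpiB DKO value after LPS + IL-4 below. In naive cells Spi1 was 0.92 higher on the log2 scale in PU.1 SpiB DKO than in PU.1 cKO (SE 0.11, adjusted p = 0.000571), and its interaction term was 0.93 (SE 0.16, adjusted p = 0.0486), which bears on every naive PU.1 SpiB DKO value and interaction below. These counts include exons outside the floxed exon 5, so they do not measure the deletion itself. In its own look at that exon the study describes retention in naive PU.1 SpiB DKO cells and efficient deletion in the LPS + IL-4 cultures. All 8 B cell markers listed exceeded 10 CPM in every group except PU.1 cKO after CD40L + IL-4, where 7 did. The sum of 8 pDC markers was 353 to 439 CPM in naive control, against 346 to 439 for the PU.1 cKO group, 1833 to 2283 for SpiB KO and 2436 to 2718 for PU.1 SpiB DKO. Fewer cells of a type and less RNA per cell cannot be told apart in such bulk libraries.

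In naive control cells the deposited RPKM, which corrects for gene length, placed the members in the same order in both libraries. Id3 stood at 164 ± 3.58 RPKM (SD, n = 2), Tcf3 at 68.4 ± 10.8, Tcf12 at 19.4 ± 0.669, Tcf4 at 14.7 ± 1.52 and Id2 at 10.8 ± 3.21. Tcf4 and Id2 were the closest neighbours in this order, and the upper Id2 library (13.1 RPKM) lay just under the lower Tcf4 library (13.7). After CD40L + IL-4 the order of control was Id3, Tcf3, Tcf4, Tcf12 and Id2. There Tcf4 (34.2 and 31.7 RPKM) stood above Tcf12 (24.4 and 19.3 RPKM). After LPS + IL-4, a table that the authors normalized separately, Tcf3 (86.7 and 75.1 RPKM) and Id3 (80.3 and 69.9 RPKM) overlapped and led the others.

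Between stages in control, on a scale set over all 24 libraries, Id3 fell in both cultures and Tcf4 rose after CD40L + IL-4. Id3 measured 164 and 157 CPM in naive cells, 89.1 and 123 after CD40L + IL-4 and 72.6 and 65.7 after LPS + IL-4. The stages did not overlap. Against naive, Id3 fell by 0.60 on the log2 scale after CD40L + IL-4 (SE 0.16, adjusted p = 0.00301) and by 1.22 after LPS + IL-4 (SE 0.16, adjusted p = 1.01e-06), and the LPS + IL-4 level was the lower of both cultures (log2 fold change -0.62, SE 0.16, adjusted p = 0.00298). Tcf4 measured 107 and 124 CPM in naive cells, 261 and 236 after CD40L + IL-4 and 142 and 130 after LPS + IL-4. Only the differences of the CD40L + IL-4 level from the other stages passed the test. That level was 2.15-fold above naive (log2 1.11, SE 0.15, adjusted p = 4.36e-06) and 1.83-fold above LPS + IL-4 (LPS + IL-4 against CD40L + IL-4, log2 -0.87, SE 0.15, adjusted p = 8.74e-05). LPS + IL-4 against naive gave 0.23 for Tcf4 (SE 0.15, adjusted p = 0.171), although these libraries did not overlap. The CD40L + IL-4 counts were deposited as a set of their own, and the naive and LPS + IL-4 counts together as another. Stage and set therefore cannot be told apart where that culture is compared with another stage, here or in the genotype effects between stages below. Tcf12 was higher after LPS + IL-4 than in naive control (124 and 117 against 101 and 95.7 CPM, log2 0.29, SE 0.14, adjusted p = 0.0763). That call was lost without naive control replicate 2 (adjusted p = 0.228), without LPS + IL-4 control replicate 1 (0.230) and with limma's voom (0.489). For Tcf3 and Id2 no difference between stages passed the test in control. The background was high: 64.7% of all genes tested differed between CD40L + IL-4 and naive control, 76.9% between LPS + IL-4 and naive, and 59.4% between the cultures, with 2 of the 5 tested members called in each.

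Tcf4 was the E protein gene that differed most between genotypes, and in opposite directions in naive and CD40L + IL-4 cells. In naive cells it measured 98.1 and 119 CPM in control, while PU.1 cKO gave 84.3 and 109, SpiB KO 170 and 182 and PU.1 SpiB DKO 181 and 218. Both genotypes without SpiB lay above both genotypes with it, with no overlap. Tcf4 rose 1.62-fold in SpiB KO (log2 0.70, SE 0.16, adjusted p = 0.0317) and 1.84-fold in PU.1 SpiB DKO (log2 0.88, SE 0.16, adjusted p = 0.00405). The SpiB KO call was lost without SpiB KO replicate 2 (adjusted p = 0.156). PU.1 SpiB DKO also exceeded PU.1 cKO, by 2.07-fold (log2 1.05, SE 0.16, adjusted p = 0.00195). It differed from SpiB KO by 0.18 (95% interval -0.16 to 0.52, adjusted p = 0.723), and PU.1 cKO from control by -0.17 (95% interval -0.52 to 0.18, adjusted p = 0.566).

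The pDC markers moved with these naive values. In each genotype without SpiB 7 of the 8 listed pDC markers passed the test as higher than control and 0 as lower. In PU.1 cKO 1 was higher and 1 lower. The share of all genes called was 12.6% in SpiB KO, 34.8% in PU.1 SpiB DKO and 17.2% in PU.1 cKO. Siglech, a surface receptor of pDC, measured 23.9 to 57.2 CPM in control, 200 to 237 in SpiB KO and 229 to 267 in PU.1 SpiB DKO. Between genotypes, those with the higher pDC sums held the higher Tcf4 levels. Within each of the 4 naive genotypes the library with the higher pDC sum, replicate 1 in all 4, held the lower Tcf4 level. Replicate 1 also held the lower Tcf3 level in all 4, so replicate number and pDC sum cannot be told apart within genotypes. The summed T cell list, of cells that the CD3- sort excludes, was 309 to 365 CPM in control, 513 to 588 in SpiB KO and 608 to 638 in PU.1 SpiB DKO. Cd8a (2.35 to 12.0 CPM in control, 175 to 231 in SpiB KO) and Cd4 (6.75 to 19.0 CPM in control, 59.9 to 60.9 in SpiB KO) made up most of that difference, whereas Cd3d, Cd3e and Cd3g did not exceed 1.23 CPM in any naive library. Of 7 T cell markers tested, 2 were called higher in SpiB KO (background 12.6%) and 3 higher and 1 lower in PU.1 SpiB DKO (background 34.8%). The part of other cells in the naive Tcf4 result was not tested.

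**Figure D1:**
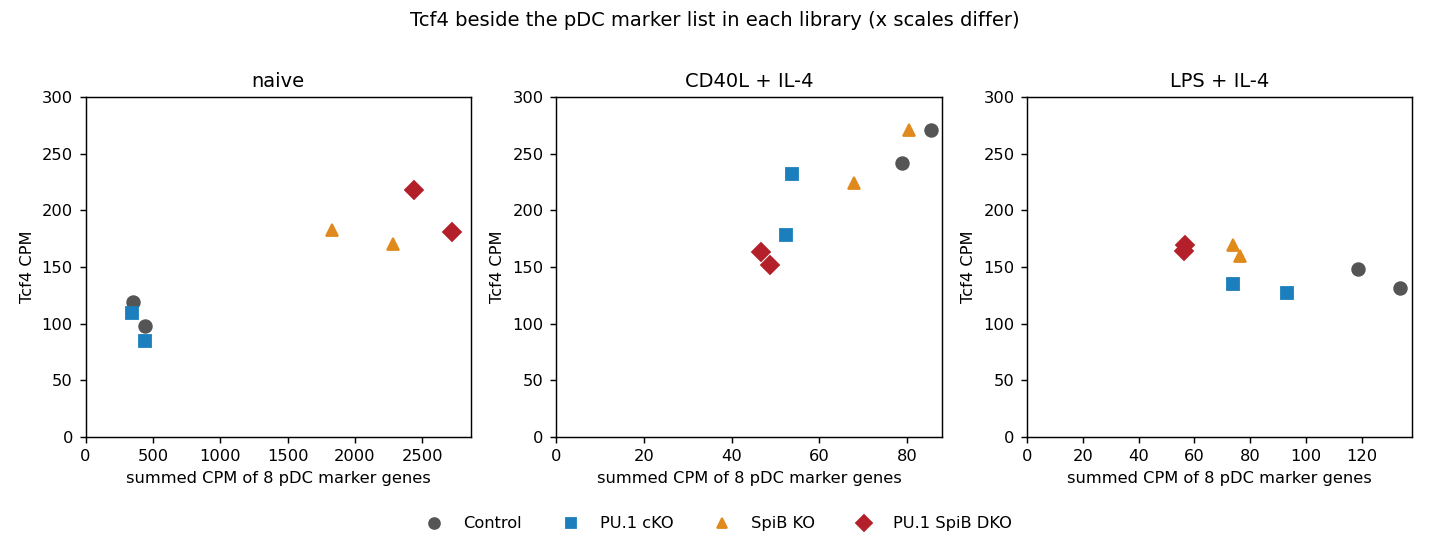
Tcf4 CPM (vertical axis) against the summed CPM of 8 pDC marker genes (horizontal axis, whose scale differs between panels) in each library, 1 panel per stage, with colour and shape for genotype. Naive SpiB KO and PU.1 SpiB DKO libraries lie at 1833 to 2718 CPM of pDC markers, whereas all cultured libraries lie at 46.7 to 134.

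After CD40L + IL-4 the direction was the opposite. Tcf4 measured 271 and 242 CPM in control, against 233 and 179 for the PU.1 cKO group, 271 and 224 for SpiB KO and 163 and 151 for PU.1 SpiB DKO. Both PU.1 SpiB DKO libraries lay below all 6 others. Tcf4 fell by 0.70 on the log2 scale against control (SE 0.18, adjusted p = 0.0235) and by 0.65 against SpiB KO (SE 0.17, adjusted p = 0.0385). The difference from SpiB KO was lost without SpiB KO replicate 1 (adjusted p = 0.238) or PU.1 SpiB DKO replicate 2 (0.206), and the one from control kept its call without any 1 of the 4 libraries. Against PU.1 cKO the difference was -0.38 (95% interval -0.77 to 0.00, adjusted p = 0.393), and PU.1 cKO differed from control by -0.32 (adjusted p = 0.314). In these cultures Klk1 was listed at 0 in every library and Siglech in both control libraries, and the pDC sum was 78.9 to 85.6 CPM in control and 46.7 to 48.7 in PU.1 SpiB DKO. Plasma cell markers, summed over 8 genes, ran from 1562 to 1740.1 CPM in control, while PU.1 cKO gave 2463 to 2632, SpiB KO 1468 to 2084 and PU.1 SpiB DKO 3126 to 3244, and their part in the Tcf4 result was not tested.

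After LPS + IL-4 Tcf4 measured 148 and 131 CPM in control, against 135 and 127 for the PU.1 cKO group, 160 and 170 for SpiB KO and 164 and 169 for the libraries labelled PU.1 SpiB DKO. The last 2 groups again lay above the first 2, by less than in naive cells. Tcf4 rose 1.19-fold in PU.1 SpiB DKO against control (log2 0.26, SE 0.09, adjusted p = 0.0455) and 1.27-fold against PU.1 cKO (log2 0.35, SE 0.09, adjusted p = 0.0224). In SpiB KO the value was 0.24 (SE 0.09, adjusted p = 0.242). In a fit with replicate number as block it passed (adjusted p = 0.0801). The PU.1 SpiB DKO call against control was lost without control replicate 2 (adjusted p = 0.242) or PU.1 SpiB DKO replicate 2 (0.204) and in the fit of all 24 libraries (0.415). The call against PU.1 cKO was lost without PU.1 cKO replicate 2 (adjusted p = 0.168) and in the fit of all 24 libraries (0.229).

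Tested directly in a fit of all 24 libraries, the PU.1 SpiB DKO effect on Tcf4 differed between all 3 pairs of stages. From naive to CD40L + IL-4 it dropped by 1.57 on the log2 scale (SE 0.21, adjusted p = 5.01e-05), from naive to LPS + IL-4 by 0.69 (SE 0.21, adjusted p = 0.0289), and it was 0.88 higher after LPS + IL-4 than after CD40L + IL-4 (SE 0.21, adjusted p = 0.00939). The SpiB KO effect on Tcf4 was also lower after CD40L + IL-4 than in naive cells, by 0.74 (SE 0.21, adjusted p = 0.125), a test added after the values were seen. That call was lost without any 1 of 7 of its 8 libraries (adjusted p of 0.169 to 0.283), the exception being SpiB KO replicate 1 after CD40L + IL-4.

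Tcf3, whose products E12 and E47 are the main E proteins of B cells, varied less. In naive cells it measured 210 and 263 CPM in control, while PU.1 cKO gave 270 and 272, SpiB KO 174 and 195 and PU.1 SpiB DKO 224 and 256. SpiB KO lay below the 3 other groups, with a log2 fold change against control of -0.36 (SE 0.13, adjusted p = 0.164). This difference passed with DESeq2 (adjusted p = 0.115), with other size factors (0.139), with no filter (0.0538) and in the fit of all 24 libraries (0.0710). In the blocked fit it also passed (adjusted p = 0.0206), as did the PU.1 cKO value (0.20, adjusted p = 0.122 with the block and 0.411 without). PU.1 SpiB DKO against SpiB KO gave 0.38 (adjusted p = 0.246). That difference passed with the block (adjusted p = 0.0291), with no filter (0.102) and in the fit of all 24 libraries (0.117).

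After CD40L + IL-4 Tcf3 measured 303 and 278 CPM in control, against 354 and 393 for the PU.1 cKO group, 281 and 284 for SpiB KO and 393 and 376 for PU.1 SpiB DKO. Both genotypes without PU.1 lay above both with it. Tcf3 rose 1.32-fold in PU.1 SpiB DKO against control (log2 0.41, SE 0.14, adjusted p = 0.0898) and 1.36-fold against SpiB KO (log2 0.45, SE 0.14, adjusted p = 0.0776). The PU.1 cKO value of 0.36 did not pass in the main fit (SE 0.14, adjusted p = 0.161). It passed with DESeq2 (adjusted p = 0.143), with the block (0.0858) and in the fit of all 24 libraries (0.0290). Each of the PU.1 SpiB DKO calls, against control and against SpiB KO, was lost without any 1 of its own 4 libraries. The PU.1 SpiB DKO effect on Tcf3 was 0.40 higher after CD40L + IL-4 than in naive cells (SE 0.16, adjusted p = 0.15 after rounding, just inside the threshold). The call was lost with other size factors (adjusted p = 0.167), voom (0.365), no filter (0.480) and the fit of the 12 control and PU.1 SpiB DKO libraries (0.345). It was also lost without either CD40L + IL-4 library of control or PU.1 SpiB DKO, without naive control replicate 2 or without naive PU.1 SpiB DKO replicate 1 (adjusted p of 0.170 to 0.440).

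After LPS + IL-4 Tcf3 measured 307 and 279 CPM in control, while PU.1 cKO gave 309 and 278, SpiB KO 280 and 296 and the libraries labelled PU.1 SpiB DKO 329 and 337, which lay above the other 6. It rose 1.14-fold against control (log2 0.19, SE 0.09, adjusted p = 0.125) and 1.16-fold against SpiB KO (log2 0.21, SE 0.09, adjusted p = 0.132). These calls were lost with DESeq2 (adjusted p = 0.176 and 0.170), with no filter and in the fit of all 24 libraries. The call against control was also lost in the fit of only the groups compared. Against control, only the removal of control replicate 1 kept the call among the 4 libraries (otherwise 0.243 to 0.452). Against SpiB KO it was lost without any of the 4 (0.225 to 0.459). With the block, PU.1 SpiB DKO relative to PU.1 cKO also passed (log2 0.18, adjusted p = 0.0729 with the block and 0.163 without). It passed as well with voom (adjusted p = 0.0798) and in the fit of only the groups compared (0.142).

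Tcf12 passed no test between genotypes at any stage. It measured 80.4 to 103 CPM over the 8 naive libraries and 119 to 137 over the 8 libraries of LPS + IL-4. After CD40L + IL-4 the values were 133 and 101 CPM in control, against 122 and 99.0 for the PU.1 cKO group, 112 and 116 for SpiB KO and 104 and 95.6 for PU.1 SpiB DKO. All 4 genotypes overlapped in naive cells.

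**Figure D2:**
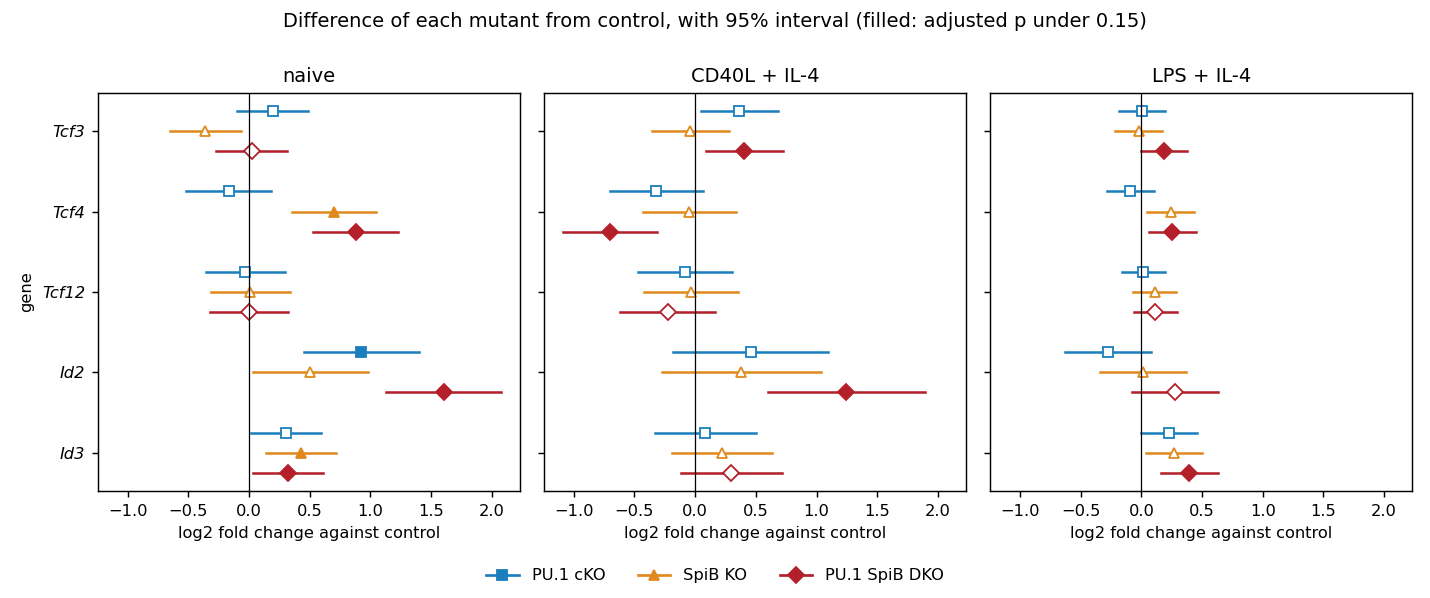
Log2 fold change of each mutant against control (horizontal axis) for the 5 tested members (vertical axis), 1 panel per stage, with bars for the 95% interval and filled points for an adjusted p under 0.15. Tcf4 in PU.1 SpiB DKO lies at 0.88 in naive cells, -0.70 after CD40L + IL-4 and 0.26 after LPS + IL-4, and Id2 at 1.60, 1.25 and 0.28.

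Among the Id genes, windows of 300 bases around the annotated start (250 before and 50 after) were at hand for Id2 and Id3. They are shown because these are the Id genes that differed between genotypes, with the sequences from RefSeq on GRCm38.p6, 5′ to 3′ on the strand of the gene. Id2 (gene ID 15902, chromosome 12, 25093799 to 25096092) is on the minus strand, and its window is chr12:25096043-25096342. Id3 (gene ID 15903, chromosome 4, 136143822 to 136145392) is on the plus strand, and its window is chr4:136143572-136143871. Capitals mark the E-box CAGCTG in Id2 and, in Id3, the reverse complement of GAGGAAG, a sequence bound by PU.1 and SpiB.
Id2: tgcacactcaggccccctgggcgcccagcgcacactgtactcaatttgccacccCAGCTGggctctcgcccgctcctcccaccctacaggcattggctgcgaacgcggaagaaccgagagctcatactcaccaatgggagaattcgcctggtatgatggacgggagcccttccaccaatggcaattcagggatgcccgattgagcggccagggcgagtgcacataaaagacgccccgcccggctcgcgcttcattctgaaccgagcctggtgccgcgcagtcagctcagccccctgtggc
Id3: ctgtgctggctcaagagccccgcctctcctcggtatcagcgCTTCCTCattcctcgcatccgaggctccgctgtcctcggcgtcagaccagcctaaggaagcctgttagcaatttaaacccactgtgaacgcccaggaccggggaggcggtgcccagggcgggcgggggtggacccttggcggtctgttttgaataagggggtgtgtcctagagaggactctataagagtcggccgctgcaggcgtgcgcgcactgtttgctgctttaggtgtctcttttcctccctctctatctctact
The E-box of Id2 begins 196 bases before the start of the gene, and the GAGGAAG match of Id3, on the opposite strand, 209 bases before it. Searched on both strands, GAGGAAG occurs in 13.6% of all 32851 promoter windows of the table, CAGCTG in 16.3% and CAGGTG in 20.2%. Over the 6 windows of Tcf3 (1), Tcf12 (3), Id2 (1) and Id3 (1), GAGGAAG was found in 2, CAGCTG in 2 and CAGGTG in 0. A match describes these letters only.

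Id2, a low-abundance transcript in control, was higher in every mutant genotype in naive cells, though SpiB KO did not pass in the main fit. It measured 14.5 and 9.88 CPM in control, while PU.1 cKO gave 25.8 and 20.5, SpiB KO 18.5 and 16.1 and PU.1 SpiB DKO 40.3 and 33.9. The 4 genotypes did not overlap. Against control it rose 1.90-fold in PU.1 cKO (log2 0.92, SE 0.21, adjusted p = 0.0319) and 3.04-fold in PU.1 SpiB DKO (log2 1.60, SE 0.21, adjusted p = 0.000806). SpiB KO gave 0.50 (SE 0.21, adjusted p = 0.223). That difference passed in the blocked fit (adjusted p = 0.0312) and with no filter (0.0980). PU.1 SpiB DKO also exceeded PU.1 cKO by 0.68 (SE 0.20, adjusted p = 0.0654) and SpiB KO by 1.10 (SE 0.20, adjusted p = 0.0291). Spi1 stood at 103 and 110 CPM in naive PU.1 SpiB DKO, against 59.5 and 53.2 for the PU.1 cKO group. Between these groups, the one with more Spi1 thus held more Id2. The call in PU.1 cKO was lost without PU.1 cKO replicate 1 (adjusted p = 0.221). That against PU.1 cKO was lost without PU.1 SpiB DKO replicate 1 (0.299) or PU.1 cKO replicate 2 (0.377), and that against SpiB KO without PU.1 SpiB DKO replicate 1 (0.178) or either SpiB KO library (0.170 and 0.237).

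Markers of cells that use Id2 were measured beside it. Summed over 8 genes, those of natural killer and innate lymphoid cells ran from 63.1 to 134 CPM in naive control, against 51.8 to 143 for the PU.1 cKO group, 156 to 220 for SpiB KO and 159 to 254 for PU.1 SpiB DKO. In PU.1 SpiB DKO 2 of the 8 passed the test as higher than control and 0 as lower, where 34.8% of all genes were called. The macrophage list was 13.8 to 25.3 CPM in control, 13.2 to 14.3 for PU.1 cKO, 51.8 to 64.0 for SpiB KO and 72.6 to 72.9 for PU.1 SpiB DKO, most of it from Cd68 in the last 2. The part of these cells in the naive Id2 values was not tested.

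After CD40L + IL-4 Id2 measured 10.4 and 18.4 CPM in control, while PU.1 cKO gave 19.5 and 19.7, SpiB KO 22.2 and 15.2 and PU.1 SpiB DKO 40.9 and 27.2. Both PU.1 SpiB DKO libraries again lay above the other 6, and the control libraries differed from each other more than in other stages. Id2 rose 2.37-fold in PU.1 SpiB DKO against control (log2 1.25, SE 0.29, adjusted p = 0.0181) and 1.82-fold against SpiB KO (log2 0.87, SE 0.29, adjusted p = 0.0859). The call against SpiB KO was lost without PU.1 SpiB DKO replicate 1 (adjusted p = 0.331) or SpiB KO replicate 2 (0.277). Against PU.1 cKO the difference was 0.79 (95% interval 0.17 to 1.41, adjusted p = 0.246), and it passed with no filter (0.0101), in the fit of all 24 libraries (0.0946) and in the fit of only the groups compared (0.0984). The list of natural killer and innate lymphoid cells was 7.72 to 9.32 CPM in control and 27.3 to 30.6 in PU.1 SpiB DKO in these cultures. Of its 5 genes tested, 2 were called higher and 1 lower in PU.1 SpiB DKO, where 25.2% of all genes were called. The listed receptor gene Ncr1 was at 0 in every genotype here, so it does not separate the groups. The part of these cells in the result was not tested.

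After LPS + IL-4 the values were 15.8 and 15.9 CPM in control, against 13.4 and 12.8 for the PU.1 cKO group, 15.3 and 16.9 for SpiB KO and 16.1 and 22.5 for the libraries labelled PU.1 SpiB DKO. These libraries differed from control by 0.28 (95% interval -0.07 to 0.63, adjusted p = 0.204, or 0.120 in the blocked fit), and Id2 was higher there than in PU.1 cKO (log2 0.56, SE 0.16, adjusted p = 0.0358). That call was lost without PU.1 cKO replicate 2 (adjusted p = 0.173) or PU.1 SpiB DKO replicate 2 (0.240) and in the fit of all 24 libraries (0.220). Against naive cells the PU.1 SpiB DKO effect on Id2 was lower after LPS + IL-4 by 1.38 (SE 0.36, adjusted p = 0.0126), a call that held without any 1 of its 8 libraries. It was also 1.05 lower than after CD40L + IL-4 (LPS + IL-4 against CD40L + IL-4, log2 -1.05, SE 0.36, adjusted p = 0.0589), which was lost without replicate 1 of either group after CD40L + IL-4 (0.260 for control and 0.207 for PU.1 SpiB DKO), without LPS + IL-4 control replicate 2 (0.168) or PU.1 SpiB DKO replicate 1 (0.227). For PU.1 cKO the effect dropped by 1.22 from naive to LPS + IL-4 (SE 0.36, adjusted p = 0.0856), a test added after the values were seen, and 5 of its 8 libraries each ended the call when left out (0.156 to 0.297).

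Id3, the most abundant Id transcript and a target of antigen receptor signalling in lymphocytes, differed modestly. In naive cells it measured 151 and 150 CPM in control, while PU.1 cKO gave 197 and 174, SpiB KO 198 and 207 and PU.1 SpiB DKO 210 and 166. Every mutant library lay above both control libraries. Id3 rose 1.34-fold in SpiB KO (log2 0.43, SE 0.13, adjusted p = 0.0939) and 1.25-fold in PU.1 SpiB DKO (log2 0.32, SE 0.13, adjusted p = 0.111). In PU.1 cKO the value was 0.30 (SE 0.13, adjusted p = 0.195, or 0.0624 in the blocked fit). The SpiB KO call was lost without either SpiB KO library (adjusted p of 0.316 and 0.272) or control replicate 2 (0.277). The PU.1 SpiB DKO call was lost without either control library and without PU.1 SpiB DKO replicate 1 (with the log2 fold change at 0.14). It was also lost with DESeq2 (adjusted p = 0.156), in the fit of all 24 libraries and in the fit of only the groups compared.

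After CD40L + IL-4 Id3 passed no test between genotypes. Its values were 92.3 and 126 CPM in control, against 102 and 129 for the PU.1 cKO group, 131 and 123 for SpiB KO and 125 and 143 for PU.1 SpiB DKO, and the groups overlapped. After LPS + IL-4 it measured 75.7 and 66.5 CPM in control, while PU.1 cKO gave 90.7 and 75.6, SpiB KO 86.5 and 84.7 and the libraries labelled PU.1 SpiB DKO 92.1 and 94.7, which lay above the other 6. Id3 rose 1.32-fold there against control (log2 0.40, SE 0.10, adjusted p = 0.0162), a call kept without any 1 of the 4 libraries. PU.1 cKO gave 0.23 (adjusted p = 0.222 and, with the block, 0.0698) and SpiB KO 0.27 (adjusted p = 0.280 and, with the block, 0.0732). The block also brought PU.1 SpiB DKO relative to PU.1 cKO past the test (log2 0.17, adjusted p = 0.115 with the block and 0.281 without). The PU.1 SpiB DKO effect on Id3 differed by at most 0.02 between stages (naive to CD40L + IL-4, 95% interval -0.46 to 0.45).

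Id1, an Id gene of early progenitors and endothelial cells, lay near the limit of detection. Its counts were 0 to 3 in each naive library, 0 to 3 after CD40L + IL-4 and 2 to 12 after LPS + IL-4, at most 0.299 CPM in any library. It was listed at 0 in 3 naive libraries and in 5 of the CD40L + IL-4 cultures, so that a level of up to 0.305 CPM (3 counts in the shallowest of these) is allowed by a count of 0.

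The composition of the E protein pool was taken from deposited RPKM. Tcf4 made up 14.5 and 14.3% of the summed Tcf3, Tcf4 and Tcf12 RPKM in naive control, against 11.0 and 12.9% for the PU.1 cKO group, 24.8 and 24.2% for SpiB KO and 22.5 and 23.7% for PU.1 SpiB DKO. After CD40L + IL-4 its share was 24.1 and 24.4% in control, while PU.1 cKO gave 19.7 and 15.1%, SpiB KO 26.0 and 22.3% and each PU.1 SpiB DKO library 13.6%. The share of PU.1 SpiB DKO thus lay above control in naive cells and below it after CD40L + IL-4. After LPS + IL-4 it ranged over 13.5 to 16.7% in all 8 libraries. The ratio of summed E protein RPKM to summed Id2 and Id3 RPKM was below 1 in all 8 naive libraries (0.403 to 0.652). It exceeded 1 in 3 of 8 libraries after CD40L + IL-4 (range 0.851 to 1.48) and in 8 of 8 after LPS + IL-4 (1.22 to 1.41). In control the values were 0.526 and 0.652, then 1.48 and 0.909, then 1.41 and 1.38, so the CD40L + IL-4 libraries differed from each other by more than the other pairs. In naive cells the ratios of SpiB KO (0.403 and 0.427) lay below control, and those of PU.1 cKO (0.452 and 0.567) and PU.1 SpiB DKO (0.406 and 0.626) overlapped it. After LPS + IL-4 all 6 mutant libraries (1.22 to 1.33) lay below both control libraries. These shares and ratios are descriptions of the libraries and were not tested.

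**Figure D3:**
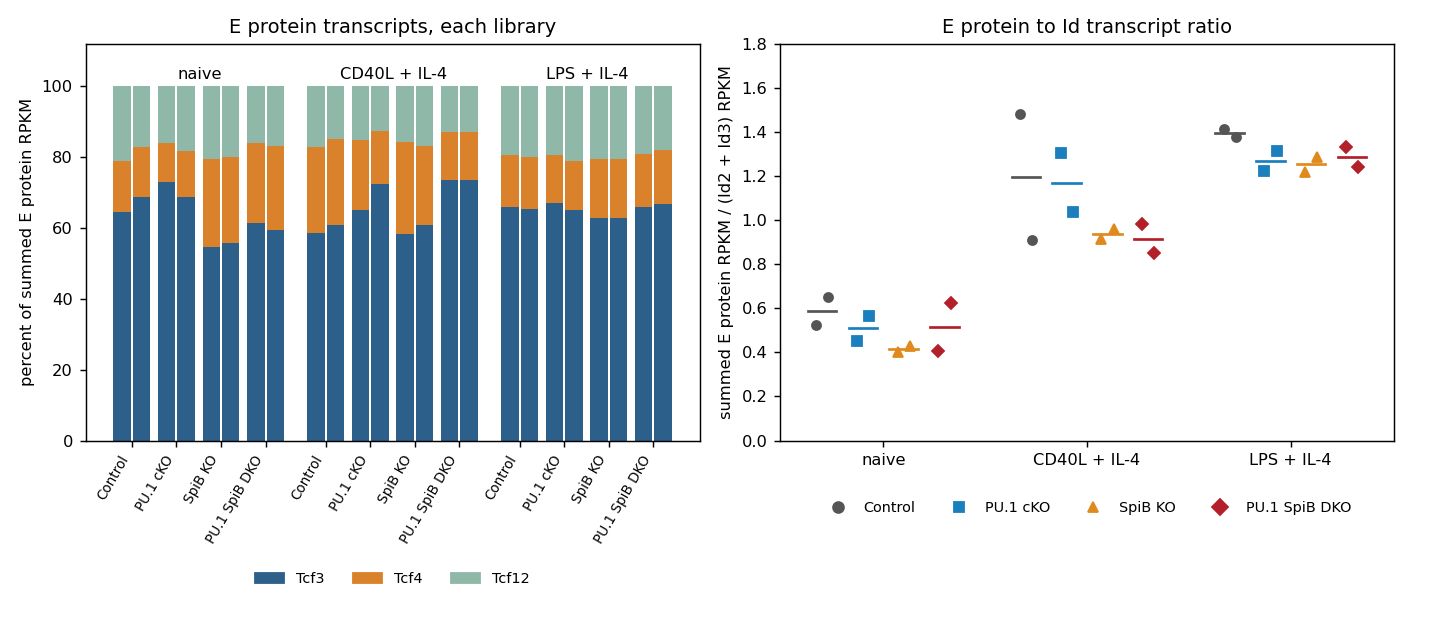
Left, the percent of summed E protein RPKM taken by Tcf3, Tcf4 and Tcf12 in each library (bars stacked to 100), by stage and genotype. Right, the ratio of summed E protein RPKM to Id2 plus Id3 RPKM, with points for libraries and lines for the means of 2, which runs from 0.403 to 0.652 in naive libraries and from 1.22 to 1.41 after LPS + IL-4.

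Counted over the 5 tested members, the calls read against the share of all genes called in the same comparison as follows. In naive cells 1 member was called in PU.1 cKO (Id2, background 17.2%), 2 in SpiB KO (Tcf4 and Id3, background 12.6%) and 3 in PU.1 SpiB DKO (Tcf4, Id2 and Id3, background 34.8%), all higher. In the blocked fit the naive total rose from 6 to 10. PU.1 SpiB DKO differed from PU.1 cKO in 2 members (Tcf4 and Id2, background 18.1%) and from SpiB KO in 1 (Id2, background 4.22%), all higher. After CD40L + IL-4 PU.1 SpiB DKO differed from control in 3 members (Tcf3 and Id2 higher and Tcf4 lower, background 25.2%) and from SpiB KO in the same 3 (background 20.4%).

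No member was called after CD40L + IL-4 by the main edgeR fit in PU.1 cKO (background 16.6%). Tcf3 stood there at an unadjusted p under 0.05 and was called by DESeq2 at 0.143. SpiB KO had no call either (background 0.134%, 0 members at an unadjusted p under 0.05). The same held for PU.1 SpiB DKO relative to PU.1 cKO (background 4.23%, with Id2 at an unadjusted p under 0.05). After LPS + IL-4 edgeR called 0 members in PU.1 cKO (background 19%, 0 at an unadjusted p under 0.05) and 0 in SpiB KO (background 5.13%, with Tcf4 and Id3 at an unadjusted p under 0.05). It called 3 in PU.1 SpiB DKO (Tcf3, Tcf4 and Id3 higher, background 47.9%), 2 in PU.1 SpiB DKO relative to PU.1 cKO (Tcf4 and Id2 higher, background 36.3%) and 1 against SpiB KO (Tcf3 higher, background 30%). With the block the LPS + IL-4 totals rose from 3 to 7 against control and from 3 to 5 against the single mutants. Apart from Tcf3 in PU.1 cKO after CD40L + IL-4, DESeq2 and limma's voom also called 0 members in each comparison where edgeR called 0.

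The PU.1 by SpiB interaction term, which measures how far PU.1 SpiB DKO departs from adding up both single-mutant effects, passed the test in edgeR for 0 members at every stage, against 0.936% of all genes in naive cells, 1.17% after CD40L + IL-4 and 1.48% after LPS + IL-4. At an unadjusted p under 0.05 stood Id3 in naive cells (-0.41, SE 0.18, adjusted p = 0.441), 0 members after CD40L + IL-4 and Id2 after LPS + IL-4 (0.54, SE 0.22, adjusted p = 0.409). DESeq2 and voom also called 0. In the blocked fit 2 passed in naive cells, Tcf4 (0.34, adjusted p = 0.135) and Id3 (-0.41, adjusted p = 0.138). For Id2, whose naive rise was largest in PU.1 SpiB DKO, the naive term was 0.17 (95% interval -0.48 to 0.83).

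Of the PU.1 SpiB DKO effects between stages, 2 members were called in each pair, against 16.8% of all genes for CD40L + IL-4 against naive, 29.6% for LPS + IL-4 against naive and 28.6% for LPS + IL-4 against CD40L + IL-4. The PU.1 cKO effect differed for Id2 between LPS + IL-4 and naive (background 6.34%) and for 0 members between CD40L + IL-4 and naive (background 8.98%, 0 at an unadjusted p under 0.05 in edgeR) or between the cultures (background 3.09%, with Tcf3 and Id2 at an unadjusted p under 0.05). The SpiB KO effect differed for Tcf4 between CD40L + IL-4 and naive (background 2.15%). It differed for 0 members between LPS + IL-4 and naive (background 5.65%, with Tcf4 at an unadjusted p under 0.05) and between the cultures (background 0% in edgeR, with 421 genes and 0 members at an unadjusted p under 0.05).

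Partners of the E proteins among other helix-loop-helix genes and their adaptors moved in both directions. Of 15 listed, 7 were tested. Here and for the next 3 lists the counts are read against the 34.8% of all genes called in PU.1 SpiB DKO in naive cells, 25.2% after CD40L + IL-4 and 47.9% after LPS + IL-4. Against control, PU.1 SpiB DKO had 2 higher and 2 lower in naive cells, 1 higher and 4 lower after CD40L + IL-4 and 4 higher and 3 lower after LPS + IL-4. The list medians were 0.07, -0.97 and 0.26 on the log2 scale, beside medians of all genes within 0.01 of 0. Changes of named genes in these lists are those of PU.1 SpiB DKO against control. Where no single-mutant values are given, they do not separate the double loss from the single ones. Bhlha15 (Mist1), a regulator of the secretory apparatus of plasma cells, rose at all 3 stages. Its log2 fold changes were 2.93 (SE 0.21, adjusted p = 3.91e-05), 3.43 (SE 0.38, adjusted p = 0.000202) and 2.46 (SE 0.14, adjusted p = 4.37e-06). After CD40L + IL-4 it went from 5.44 and 3.56 CPM to 48.1 and 49.9. In that culture PU.1 cKO held 44.1 and 52.4 CPM of Bhlha15, and SpiB KO 3.15 and 9.44. Bhlhe41 (Dec2), a repressor of the same family, rose in naive cells by 2.71 and after LPS + IL-4 by 1.36 but fell by 1.18 after CD40L + IL-4. Lyl1, a partner of E proteins in early hematopoiesis, fell by 1.10, 1.58 and 0.91, and Lmo2, the adaptor of such complexes, by 0.55, 0.97 and 0.23.

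Among 10 genes of cofactors and turnover of E and Id proteins, 9 were tested. In PU.1 SpiB DKO 0 were higher and 2 lower in naive cells (list median -0.26), 0 higher and 2 lower after CD40L + IL-4 (-0.43) and 3 higher and 3 lower after LPS + IL-4 (0.12), the naive share lying below the background and the CD40L + IL-4 share near it. Ep300 and Crebbp, the acetyltransferases p300 and CBP recruited by E proteins, fell in naive cells by 0.88 (SE 0.21, adjusted p = 0.0175) and 1.13 (SE 0.28, adjusted p = 0.022). They were called lower to a like extent in PU.1 cKO (log2 -0.84 and -1.13) and SpiB KO (-0.88 and -1.16), and the control libraries were far apart, at 112 and 172 CPM for Ep300 and 31.9 and 63.5 CPM for Crebbp. Cbfa2t3, an ETO corepressor that binds E proteins, fell by 1.37 after CD40L + IL-4 and rose by 0.49 after LPS + IL-4. Kat2b, a further acetyltransferase, rose by 0.47 after LPS + IL-4 (SE 0.17, adjusted p = 0.0634).

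Genes known as E protein targets in B lineage cells numbered 18, of which 16 were tested in naive cells and 13 in each culture. In PU.1 SpiB DKO 4 were higher and 1 lower than control in naive cells (list median 0.07), 6 higher and 3 lower after CD40L + IL-4 (0.47) and 9 higher and 3 lower after LPS + IL-4 (1.02). The naive share lay at or below the background. Gfi1, a transcriptional repressor, rose at all stages by 1.55, 2.11 and 3.78, in the last from 1.47 and 0.846 CPM to 16.7 and 13.1. Cdkn1a, the cell cycle inhibitor p21, rose by 0.99, 1.09 and 1.02. Foxo1, which drives Rag gene expression and germinal center polarity, fell by 0.42 in naive cells (adjusted p = 0.0249) and rose by 0.66 after CD40L + IL-4 (adjusted p = 0.0293) and by 1.31 after LPS + IL-4 (adjusted p = 1.53e-05). Some of these rises were shared by PU.1 cKO. Cdkn1a after LPS + IL-4 held 17.3 and 21.2 CPM in PU.1 cKO, 18.1 and 15.8 in PU.1 SpiB DKO and 8.17 and 8.56 in control. Foxo1 after CD40L + IL-4 held 471 and 409 CPM in PU.1 cKO, 436 and 384 in PU.1 SpiB DKO and 295 and 224 in control. Foxo1 after LPS + IL-4 held 201 and 203 CPM in PU.1 cKO, below 331 and 318 in PU.1 SpiB DKO. Gfi1 there held 2.79 and 2.97 CPM in PU.1 cKO. Xbp1 of this list is also a plasma cell marker here, and Pax5 and Cd79a are also B cell markers. The plasma cell list moved with these cultures, after LPS + IL-4 from 835 to 891 CPM in control to 2130.1 to 2254 in PU.1 SpiB DKO, and its part in the target genes was not tested.

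**Figure D4:**
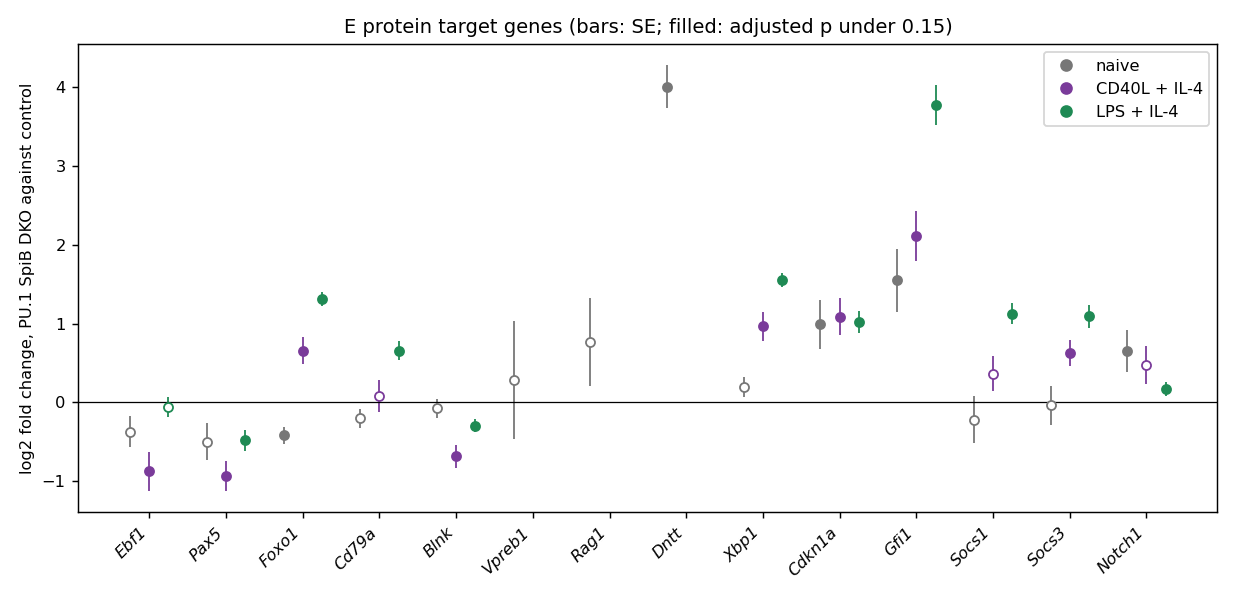
Log2 fold change of PU.1 SpiB DKO against control (vertical axis) for tested E protein targets (horizontal axis), coloured by stage, with bars for SE and filled points for an adjusted p under 0.15. Gfi1 and Cdkn1a lie above 0 at all 3 stages, and Foxo1 lies at -0.42 in naive cells and at 0.66 and 1.31 in the cultures.

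Receptors and SMADs of the BMP and TGF-beta pathways, which induce Id genes in many cells, were listed as 16 genes together with Egr1. Of these, 12 were tested in naive cells and 13 in each culture. PU.1 SpiB DKO had 3 higher and 3 lower in naive cells (list median -0.07), 2 higher and 2 lower after CD40L + IL-4 (-0.29) and 6 higher and 1 lower after LPS + IL-4 (0.23), with the shares after both cultures near the background. Smad3, a signal transducer of TGF-beta, rose at each stage by 0.97, 0.70 and 0.84, in naive cells from 36.5 and 39.9 CPM to 71.1 and 78.9. Smad1, the transducer of BMP signals, rose by 0.65 after CD40L + IL-4 (SE 0.24, adjusted p = 0.102) and 1.51 after LPS + IL-4 (SE 0.17, adjusted p = 0.000169). The receptor gene Tgfbr2 fell by 0.62 in naive cells and 0.79 after CD40L + IL-4. Egr1, an immediate early gene that activates Id3, fell by 0.77 in naive cells (SE 0.23, adjusted p = 0.0403) and rose by 0.70 after LPS + IL-4 (SE 0.16, adjusted p = 0.00912). Its naive control libraries were far apart, at 114 and 62.8 CPM, against 49.9 and 53.5 in PU.1 SpiB DKO. SpiB KO held 65.9 and 61.8 CPM and PU.1 cKO, the lowest group, 34.8 and 37.0.

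Finally, the genes whose log2 CPM was most like each member over the 24 libraries were found among 8725 genes with a mean of at least 10 CPM. They were Ckap4 (Pearson's r 0.865), Gpatch2 (0.855) and AU020206 (0.834) for Tcf3, and Rps6ka1 (0.878), Phkb (0.865) and Atrnl1 (0.860) for Tcf4. For Tcf12 they were Dopey1 (0.904), Rasa1 (0.897) and Cnot1 (0.886). Id2 was most like Cd9 (0.828), Cmc1 (0.817) and Pccb (0.808), and Id3 most like Smpd1 (0.974), Ndufaf3 (0.973) and Atp6v1f (0.971). The points share stages and library preparation, and the values describe likeness over these libraries only.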

How the data were processed

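Per the labels and the study's methods, the authors used Subread for alignment to GRCm38 (mm10) and featureCounts for counting uniquely mapping reads over RefSeq exons. The deposited raw counts of 27179 genes in 24 libraries were the input of every test. They came as 1 set for CD40L + IL-4 and another for naive and LPS + IL-4 libraries. The deposited log2 RPKM, which the authors quantile normalized with limma in 1 table for naive and CD40L + IL-4 libraries and another for LPS + IL-4, served for levels between genes, the E protein shares and the ratio to Id genes. Strand-specific counting is not given in the sources used here. Of the gene entries, 517 carried no symbol (0.162% of counts). The extraction protocol attached to every sample speaks of CD40L + IL-4, so stages were taken from the sample titles.

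The 8 libraries of a stage were fitted together by genotype with edgeR 4.0.16 in R 4.3.3 (quasi-likelihood test, TMM normalization), after a filter of 0.5 CPM in at least 2 libraries, which left 12500 naive, 12721 CD40L + IL-4 and 12445 LPS + IL-4 genes. Differences between stages used all 24 libraries in 12 groups (13684 genes). SE was obtained from the log2 fold change and the F statistic. The scripts were tested on simulated data. Alternatives were DESeq2 1.42.0, limma 3.58.1 voom, other size factors, no filter, an adjusted p under 0.05, other sets of libraries, a replicate block and each library left out. Replicates correlated at 0.987 to 0.9955. Same-numbered libraries deviated together in naive cells (6 correlations of 0.139 to 0.327) and after LPS + IL-4 (0.409 to 0.573), but not in all pairs after CD40L + IL-4 (-0.0603 to 0.352). The main fits held no replicate term at any stage, so calls not marked as blocked leave any such pairing out. The block was fitted only as an alternative. The labels state no pairing.

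The members, gene lists, markers and tests were chosen with earlier results of these data known. Named genes were the members, Spi1, Spib, at most 4 genes of each list (those called at most stages in PU.1 SpiB DKO, then by size) and the 3 genes most like each member. The markers Siglech, Klk1, Ncr1, Cd8a, Cd4, Cd3d, Cd3e, Cd3g and Cd68, and the tests of single-mutant effects between stages, were chosen after values were seen. The markers Adgre1 and Jchain were matched by gene ID, since the table lists older symbols. A promoter window was found for 4 of the 6 members. Some genes of the lists enter the counts and medians but are not reported here by name.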

Additional observations from a re-analysis of the deposited data

Results flagged for a closer look

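The effect of genotype on 3 members differed between stages in a direct test within the fit of all 24 libraries. For Tcf4 the PU.1 SpiB DKO effect against control changed by -1.57 on the log2 scale from naive cells to CD40L + IL-4, by -0.69 from naive cells to LPS + IL-4 and by 0.88 from CD40L + IL-4 to LPS + IL-4, and the SpiB KO effect by -0.74 from naive cells to CD40L + IL-4. For Id2 the PU.1 SpiB DKO effect changed by -1.38 from naive cells to LPS + IL-4 and by -1.05 from CD40L + IL-4 to LPS + IL-4, and the PU.1 cKO effect by -1.22 from naive cells to LPS + IL-4. For Tcf3 the PU.1 SpiB DKO effect changed by 0.40 from naive cells to CD40L + IL-4, a call kept in 2 of 7 other fits and without 2 of its 8 libraries. In naive libraries the pDC markers stood at 1833 to 2718 CPM where SpiB was lost, and in all cultured libraries at 46.7 to 134, and their part in the Tcf4 differences was not tested. The Spi1 transcript of the libraries labelled PU.1 SpiB DKO after LPS + IL-4 did not differ from control by the test (adjusted p = 0.448, edgeR), although the study describes the floxed exon as deleted there.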

How the results depend on the processing

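Of 150 differences of members tested, 35 were called, 0 changed sign under any alternative, and 15 kept their call under every alternative and left-out library. DESeq2 kept 32, voom 33, other size factors 34, no filter 32, an adjusted p under 0.05 kept 22 and the replicate block 35, while the fit of all 24 libraries kept 15 of the 21 that it covers. The main counts were 6 naive, 3 CD40L + IL-4 and 3 LPS + IL-4 differences from control, 3 at each stage between PU.1 SpiB DKO and the single mutants, 0 interactions and 2 single-mutant effects between stages. With the replicate block these became 10, 5 and 7 from control, 5 against the single mutants after LPS + IL-4 and 2 interactions. The block changed no other count of calls by over 1.5 times. After CD40L + IL-4 the numbers were not shown to pair, and there the block added Tcf3 and Tcf4 in PU.1 cKO and Tcf4 in PU.1 SpiB DKO relative to PU.1 cKO. At an adjusted p under 0.05, 1 difference from the single mutants remained called after CD40L + IL-4 and 0 single-mutant effects between stages. In the fit of all 24 libraries 5 differences from the single mutants were called after CD40L + IL-4 and 0 after LPS + IL-4, with 1 difference from control after LPS + IL-4. The cause was not tested. With 1 library left out, which assumes that the lone library of a group varies like the others, the differences from control after LPS + IL-4 ran from 1 to 6, those from the single mutants from 1 to 3 at each stage, and the single-mutant effects between stages from 0 to 2. The number of libraries a group limits the precision, and Id1 lay near the limit of detection in these libraries.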
